A study of Mus musculus with 6 samples.

Results

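The genes described here are linked to liver macrophages and the erythroblastic islands they form, though some are also expressed in other cells. They were taken by gene symbol from a list of 35 names. All 35 were measured, each by exactly 1 probe set that the platform annotation assigns to a single gene, out of 19937 genes represented on the array in that way. RNA came from whole fetal livers of FVB/NJ mouse embryos at embryonic day 13.5, taken from time-mated Klf1 +/- parents and dissociated before extraction. The comparison sets 3 wildtype embryos beside 3 Klf1-/- embryos, called knockout below, with each liver on its own 1-colour Affymetrix array. No Cre or cell-restricted deletion is named in the labels, and the altered part of Klf1 is not given.

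In an erythroblastic island a central macrophage holds a ring of maturing red cell precursors. The macrophage binds them through adhesion molecules, among them Vcam1, which pairs with the alpha4 beta1 integrin, and the attacher protein Maea. It then engulfs the nuclei that the precursors expel, digests their DNA with the acid nuclease Dnase2a and recycles iron from heme. In fetal liver these islands are the site of definitive red cell formation. Klf1 is best known as a red cell transcription factor, but its expression in island macrophages has also been described, as has activation of Dnase2a by it.

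Values are log2 of the deposited intensities. Changes are given on that scale as knockout minus wildtype, ± 1 SE from limma (n = 3 per genotype). A gene counts as fallen or risen when its limma p, adjusted by Benjamini-Hochberg over all 19937 genes, was under 0.05. The array medians lay between 6.71 and 6.78, a closeness that RMA sets by itself. Klf1 itself read 10.59, 10.58 and 10.76 in wildtype replicates 1, 2 and 3 and 9.05, 9.38 and 9.12 in the knockout replicates. It was lower by 1.46 ± 0.10 (limma adjusted p = 3.7e-06) without overlap; where the probes lie relative to the altered part is not given, so the remaining signal cannot be read as a level of intact transcript. Of the 7 identity genes and receptors, Adgre1, Csf1r, Cd68, Fcgr3 and Tyrobp lay above the array median on all 6 arrays, while Fcgr1 lay below it on 4 and Trem2 on 3. Cd163, Marco, Folr2 and Siglec1 lay below the median on every array. Cd163, at 4.96 to 5.29, lay below the lower quartile (5.16 to 5.25 over the arrays) on 5 of the 6 arrays.

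Many macrophage and island genes were lower in knockout livers. Of the 35 genes, 13 fell, 2 rose and 20 did not pass the test, while 19.1% of all genes passed in either direction. The 13 falls make 37.1% of the set, where 8.26% of all genes tested fell; the 2 rises make 5.71%, where 10.8% of all genes rose. These shares are a description, since the 35 names were chosen with earlier results of these data known. Falls made 43.2% of all calls over the array, and 61.0% with each array centred on its 75th percentile, where 16 of the 35 genes fell and 0 rose. Under that centring 12.3% of all genes fell and 7.89% rose. The knockout arrays lay wholly below the wildtype arrays in 17 of the genes and wholly above in 2, against 18.5% and 19.0% of all genes (37.5% in either direction). The median change over the set was -0.22, against -0.02 over all genes, and 27 of the 35 changes were negative. Falls were modest, with Ctsb alone changed by at least 2-fold. In whole livers, fewer cells of a type and less RNA per cell cannot be told apart, and which cells a change came from was not tested.

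**Figure D1:**
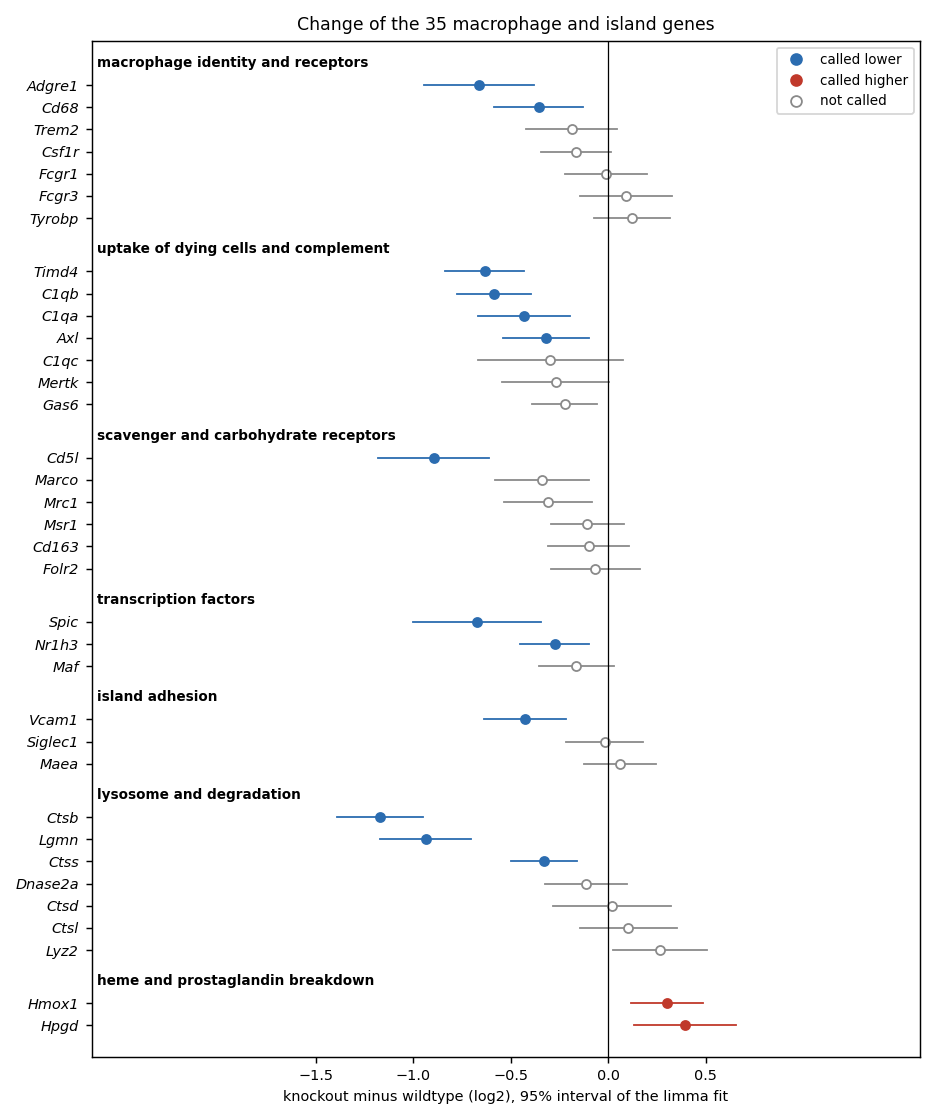
Change of each of the 35 genes, grouped by role; points are knockout minus wildtype on the log2 scale, lines are 95% intervals of the limma fit, and filled points passed the adjusted threshold. The 13 falls reach from -0.28 in Nr1h3 to -1.17 in Ctsb, and the only filled points right of 0 are Hmox1 and Hpgd.

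Promoter sequence from RefSeq (build GRCm38.p6), 250 bases before to 50 bases after the gene start, was found for 24 of the 35 genes; Adgre1, Csf1r, Tyrobp, C1qa, Msr1, Maf, Vcam1, Siglec1, Maea, Ctsb and Hmox1 had no entry. The letters GAGGAAG, of the kind bound by PU.1, the Ets factor of myeloid cells, were present on either strand in 10 of the 24, 41.7%, and in 15.4% of all 27025 genes with such windows. They were present in 4 of the 9 fallen genes with an entry, 44.4%, and in 6 of the other 15, 40%. On either strand, the permissive Klf1-type letters CCNCNCCC were present in 15 of 24, 62.5%, against 51.9% of all genes. They were present in 7 of the 9 fallen genes, 77.8%, and in 8 of the other 15, 53.3%. The letters GTCACGTG, of the kind bound by the lysosomal regulator Tfeb, were present on either strand in Lgmn and Ctsd, 8.33%, against 2.55% of all genes. A match of letters is a description and says nothing of binding in these livers. The windows of the 4 fallen genes that hold GAGGAAG follow, together with that of Fcgr1, whose level gave no call, for comparison. Nr1h3 has 2 windows, and that with the match is shown. Capitals mark every match to any of these 3 sets of letters, and positions count from the gene start at 1, with no position 0; a match on the other strand reads CTTCCTC here. The GAGGAAG match begins at -67 in Cd5l (chr3:87357631-87357930, plus strand), at -131 in Axl (chr7:25788684-25788983, minus strand), at -1 in Ctss (chr3:95526536-95526835, plus strand), at 11 in Nr1h3 (chr2:91194986-91195285, minus strand) and at -56 in Fcgr1 (chr3:96293920-96294219, minus strand).
Cd5l: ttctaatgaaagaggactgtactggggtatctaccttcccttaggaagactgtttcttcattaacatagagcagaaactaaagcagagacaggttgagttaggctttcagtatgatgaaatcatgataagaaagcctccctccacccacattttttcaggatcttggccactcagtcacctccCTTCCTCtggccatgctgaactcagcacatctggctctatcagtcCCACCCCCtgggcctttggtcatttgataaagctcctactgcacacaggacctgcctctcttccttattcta
Axl: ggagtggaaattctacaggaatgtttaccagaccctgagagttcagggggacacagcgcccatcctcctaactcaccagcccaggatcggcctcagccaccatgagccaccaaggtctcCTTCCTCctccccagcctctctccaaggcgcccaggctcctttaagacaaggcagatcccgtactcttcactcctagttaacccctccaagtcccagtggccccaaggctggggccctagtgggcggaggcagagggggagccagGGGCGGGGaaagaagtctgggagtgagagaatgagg
Ctss: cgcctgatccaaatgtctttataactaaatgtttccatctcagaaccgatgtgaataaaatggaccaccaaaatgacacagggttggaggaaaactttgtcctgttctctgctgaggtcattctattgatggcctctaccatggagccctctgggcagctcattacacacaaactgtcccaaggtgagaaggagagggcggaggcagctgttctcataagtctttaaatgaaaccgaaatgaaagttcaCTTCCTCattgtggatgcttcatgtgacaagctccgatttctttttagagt
Nr1h3: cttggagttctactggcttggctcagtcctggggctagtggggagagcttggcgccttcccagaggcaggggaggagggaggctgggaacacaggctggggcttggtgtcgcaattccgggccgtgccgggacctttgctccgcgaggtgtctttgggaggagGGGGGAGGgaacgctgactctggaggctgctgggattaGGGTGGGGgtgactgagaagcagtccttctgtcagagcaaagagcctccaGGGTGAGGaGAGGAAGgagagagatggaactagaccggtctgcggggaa
Fcgr1: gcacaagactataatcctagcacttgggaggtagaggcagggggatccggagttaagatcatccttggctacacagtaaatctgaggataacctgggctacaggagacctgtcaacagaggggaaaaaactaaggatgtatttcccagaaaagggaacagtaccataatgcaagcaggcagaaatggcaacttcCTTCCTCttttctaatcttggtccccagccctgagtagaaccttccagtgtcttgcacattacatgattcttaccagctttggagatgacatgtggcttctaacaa

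Of 7 lysosomal genes 3 fell, among them the pair with the largest falls of the set. Ctsb, a cysteine protease, fell most of the set. Its values were 12.17, 12.08 and 12.38 in wildtype replicates 1, 2 and 3 and 10.90, 11.13 and 11.08 in the knockout replicates, so that the groups were 0.95 apart at their nearest and the knockout level was 44.4% of wildtype. The change was -1.17 ± 0.10 (limma adjusted p = 1.6e-05). Lgmn, the asparagine-specific endopeptidase that processes other lysosomal enzymes, followed. It read 10.36, 10.44 and 10.68 in wildtype replicates 1, 2 and 3 and 9.39, 9.63 and 9.64 in the knockout replicates. Without overlap, it fell by 0.94 ± 0.10 (limma adjusted p = 0.000115). Ctss, a cathepsin of antigen-presenting cells, read 7.86, 7.89 and 7.79 in wildtype replicates 1, 2 and 3 and 7.54, 7.56 and 7.45 in the knockout replicates. All of its knockout values lay below all wildtype values, and it fell by 0.33 ± 0.077 (limma adjusted p = 0.0127), a call lost without knockout replicate 3 (-0.30, adjusted p = 0.0678).

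The other members of this group gave no call. Dnase2a, the nuclease that digests engulfed nuclei, read 8.69, 8.80 and 9.0 in wildtype replicates 1, 2 and 3 and 8.63, 8.78 and 8.73 in the knockout replicates. These ranges overlapped, and the change of -0.12 had a 95% interval of -0.32 to 0.094 (limma adjusted p = 0.424). In the mouse gene order Dnase2a lies directly beside Klf1, which was the targeted gene. Ctsd, an aspartyl protease, gave 0.017 ± 0.14 and Ctsl, a cysteine protease of many cell types, 0.10 ± 0.11. Lyz2, the lysozyme of both macrophages and granulocytes, gave 0.26 ± 0.11 (limma adjusted p = 0.12).

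Of 7 identity genes and receptors of the lineage 2 fell. Adgre1, which encodes the F4/80 antigen, read 8.61, 8.76 and 9.05 in wildtype replicates 1, 2 and 3 and 7.95, 8.34 and 8.14 in the knockout replicates. Every knockout value lay below every wildtype value, and the gene fell by 0.66 ± 0.13 to 63.1% of wildtype (limma adjusted p = 0.00443). Cd68, a lysosomal glycoprotein of macrophages, read 8.41, 8.55 and 8.76 in wildtype replicates 1, 2 and 3 and 8.12, 8.17 and 8.35 in the knockout replicates. It fell by 0.36 ± 0.10 (limma adjusted p = 0.0353) with groups 0.059 apart, and the limma call was lost without wildtype replicate 2 (-0.37, adjusted p = 0.0774), wildtype replicate 3 (-0.27, adjusted p = 0.102), knockout replicate 1 (-0.31, adjusted p = 0.1) or knockout replicate 2 (-0.34, adjusted p = 0.107). Csf1r, the receptor for the growth factor that macrophages depend on, read 8.72, 8.83 and 8.85 in wildtype replicates 1, 2 and 3 and 8.54, 8.72 and 8.63 in the knockout replicates. Its groups were separated by 0.0044 and the change of -0.17 ± 0.082 did not pass (95% interval -0.35 to 0.013; limma adjusted p = 0.178). Trem2, a lipid-sensing receptor, gave -0.19. The IgG receptors Fcgr1 and Fcgr3 gave -0.011 and 0.093, and Tyrobp, the signalling adaptor that Trem2 uses, 0.12, all 4 uncalled with overlapping groups.

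Since Csf1r is read on the same arrays, each array was also set relative to its own Csf1r value, a comparison chosen after the values were seen. This removes any array-wide scaling and tests the difference between a gene's change and that of Csf1r. Relative to Csf1r, 7 of the other 34 genes were lower and 3 were higher. The lower genes were Ctsb at -1.0 (adjusted p = 1.7e-06), Lgmn at -0.77 (adjusted p = 3.8e-05), Cd5l at -0.73 (adjusted p = 0.000194), Spic at -0.51 (adjusted p = 0.0058), Adgre1 at -0.50 (adjusted p = 0.00407), Timd4 at -0.47 (adjusted p = 0.00413) and C1qb at -0.42 (adjusted p = 0.00658), all by limma. Hpgd at 0.56 (adjusted p = 0.00319), Hmox1 at 0.47 (adjusted p = 0.00388) and Lyz2 at 0.43 (adjusted p = 0.0115) were the higher genes. On this scale 3.14% of all genes were lower and 21.2% higher, since the median of all genes moved from -0.02 to 0.14. Adgre1 and Csf1r, both markers of the same lineage, thus changed unequally.

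In the group for uptake of dying cells and complement 4 of 7 fell, Timd4, Axl and the complement genes C1qa and C1qb. Timd4, a receptor for phosphatidylserine exposed on dying cells, read 7.62, 7.53 and 7.79 in wildtype replicates 1, 2 and 3 and 6.90, 7.05 and 7.07 in the knockout replicates. The groups lay 0.45 apart and the gene fell by 0.63 ± 0.092 (limma adjusted p = 0.00071). Axl, a receptor kinase for the bridging protein Gas6, read 8.38, 8.59 and 8.73 in wildtype replicates 1, 2 and 3 and 8.16, 8.30 and 8.27 in the knockout replicates. It fell by 0.32 ± 0.099 (limma adjusted p = 0.0463) without overlap. That limma call was lost without wildtype replicate 2 (-0.31, adjusted p = 0.115), wildtype replicate 3 (-0.24, adjusted p = 0.128), knockout replicate 1 (-0.28, adjusted p = 0.122), knockout replicate 2 (-0.35, adjusted p = 0.0814) or knockout replicate 3 (-0.33, adjusted p = 0.103). Mertk, the related kinase of mature macrophages, gave -0.27 ± 0.12 with overlapping groups (limma adjusted p = 0.155). Gas6 gave -0.22 ± 0.075 with groups 0.13 apart (limma adjusted p = 0.0619).

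The chains of complement C1q are made in quantity by tissue macrophages and are encoded by a row of neighbouring genes in the order C1qb, C1qc, C1qa. C1qb read 9.99, 10.06 and 10.06 in wildtype replicates 1, 2 and 3 and 9.35, 9.59 and 9.41 in the knockout replicates, with the wildtype values close together. It fell by 0.59 ± 0.086 with no overlap (limma adjusted p = 0.000768). C1qa read 7.23, 7.59 and 7.61 in wildtype replicates 1, 2 and 3 and 6.99, 7.11 and 7.04 in the knockout replicates. It fell by 0.43 ± 0.11 (limma adjusted p = 0.0172), and the limma call was lost without wildtype replicate 2 (-0.38, adjusted p = 0.0665), wildtype replicate 3 (-0.36, adjusted p = 0.0628), knockout replicate 1 (-0.40, adjusted p = 0.0526) or knockout replicate 3 (-0.43, adjusted p = 0.0562). C1qc, between them, gave -0.30 with the widest interval of the set, -0.67 to 0.074; its wildtype values ran from 8.55 to 9.28, and it passed without wildtype replicate 1 (-0.48, limma adjusted p = 0.0486). Epha8, a receptor kinase gene next to C1qa that was named after its value was seen, fell by 0.63 (limma adjusted p = 0.000551). Over all 64 measured genes outside the set that directly flank these 35, 8 fell and 10 rose. The falls include Klf1 itself, which flanks Dnase2a. Of all genes tested, 8.26% fell and 10.8% rose.

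**Figure D2:**
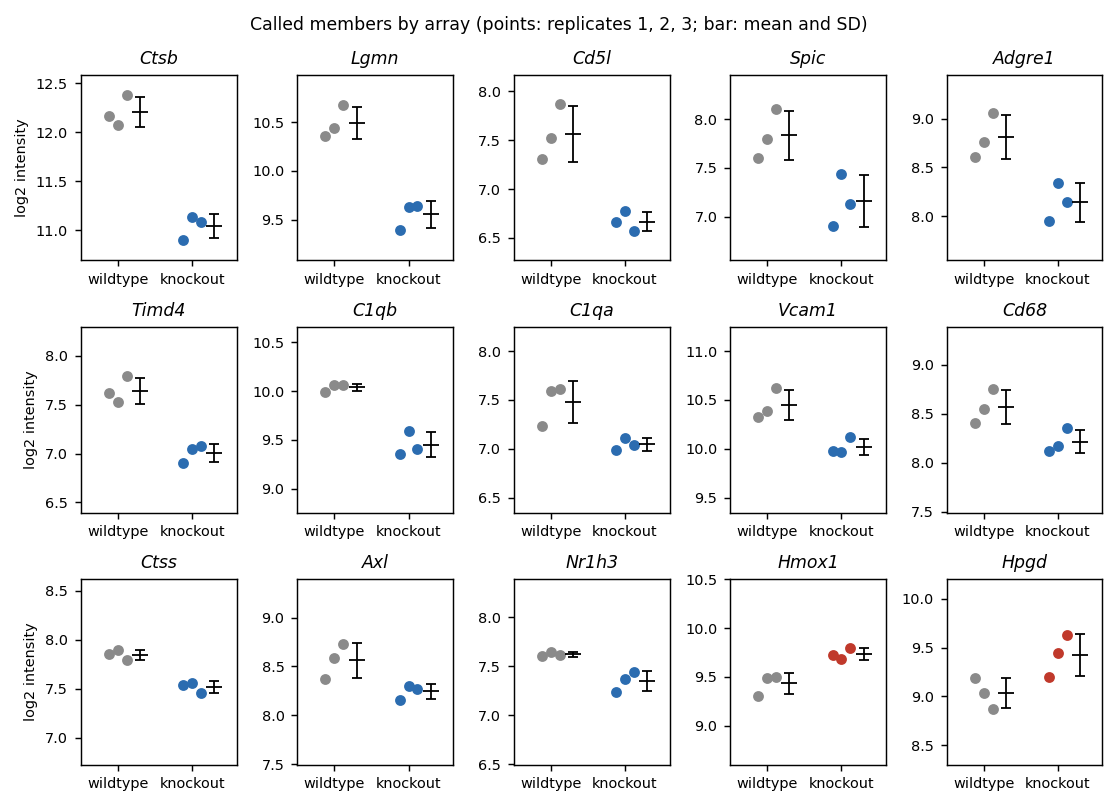
Log2 intensity on each array for the 15 genes that passed the test, with replicates 1, 2 and 3 from left to right in each group and the mean and SD beside them; each panel spans the same height on the log2 scale. In every panel the knockout points lie wholly on 1 side of the wildtype points, by 0.95 in Ctsb and by 0.011 in Hpgd.

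Among scavenger and carbohydrate receptors 1 of 6 passed. Cd5l, a secreted protein of the scavenger receptor family made by resident macrophages, read 7.31, 7.52 and 7.87 in wildtype replicates 1, 2 and 3 and 6.66, 6.77 and 6.57 in the knockout replicates. Its groups were 0.54 apart and it fell by 0.90 ± 0.13 to 53.7% of wildtype (limma adjusted p = 0.000675). Marco, a class A scavenger receptor, gave -0.34 ± 0.11 (limma adjusted p = 0.0507) and Mrc1, the mannose receptor, -0.31 ± 0.10 (limma adjusted p = 0.0575). Both lay just short of the threshold, with groups that did not overlap but were only 0.032 apart in Marco and 0.0095 apart in Mrc1. Mrc1 passed without wildtype replicate 2 (limma adjusted p = 0.0304) and Marco without wildtype replicate 1 (limma adjusted p = 0.00849). Msr1, another class A receptor, gave -0.11, Folr2, the beta folate receptor, -0.068, and Cd163, the receptor for hemoglobin bound to haptoglobin, -0.10.

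Of 3 transcription factors 2 fell. Spic, an Ets family factor of red pulp macrophages that heme induces, read 7.60, 7.80 and 8.10 in wildtype replicates 1, 2 and 3 and 6.91, 7.44 and 7.13 in the knockout replicates. The groups did not overlap, although among the falling genes its knockout values had the widest SD and its wildtype values the widest after Cd5l. Spic fell by 0.67 ± 0.15 (limma adjusted p = 0.00978). Nr1h3, the oxysterol receptor LXR alpha, read 7.60, 7.65 and 7.62 in wildtype replicates 1, 2 and 3 and 7.24, 7.37 and 7.44 in the knockout replicates. It fell by 0.28 ± 0.081 (limma adjusted p = 0.0369), a small change that was not called with any 1 array left out (limma adjusted p = 0.0537 to 0.108). Maf, a basic leucine zipper factor of resident macrophages, gave -0.16 ± 0.087 (limma adjusted p = 0.213).

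Of 3 adhesion genes of the island 1 fell. Vcam1 read 10.33, 10.39 and 10.63 in wildtype replicates 1, 2 and 3 and 9.97, 9.97 and 10.12 in the knockout replicates. Its knockout values lay at least 0.21 below the wildtype values, and it fell by 0.43 ± 0.095 to 74.4% of wildtype (limma adjusted p = 0.0103); endothelial cells and stroma also express it. Maea, found on both macrophages and erythroblasts, read 10.65, 10.63 and 10.43 in wildtype replicates 1, 2 and 3 and 10.63, 10.60 and 10.65 in the knockout replicates. Those ranges overlapped and the change was 0.06 ± 0.084, with a 95% interval of -0.12 to 0.25. Siglec1, the sialic acid receptor sialoadhesin, gave -0.02, with a 95% interval of -0.22 to 0.18.

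Hmox1 and Hpgd went the other way. Hmox1, the inducible enzyme that opens the heme ring, read 9.31, 9.49 and 9.50 in wildtype replicates 1, 2 and 3 and 9.73, 9.68 and 9.80 in the knockout replicates. All knockout values lay above all wildtype values, and the rise was 0.30 ± 0.084 (limma adjusted p = 0.0293). That limma call was lost without wildtype replicate 1 (0.24, adjusted p = 0.0771), knockout replicate 1 (0.30, adjusted p = 0.0611), knockout replicate 2 (0.33, adjusted p = 0.0581) or knockout replicate 3 (0.27, adjusted p = 0.115). Hpgd, which inactivates prostaglandins, read 9.19, 9.04 and 8.88 in wildtype replicates 1, 2 and 3 and 9.20, 9.45 and 9.63 in the knockout replicates. It rose by 0.39 ± 0.12 (limma adjusted p = 0.0415), with groups 0.011 apart, and the limma call was lost without wildtype replicate 2 (0.39, adjusted p = 0.0959), wildtype replicate 3 (0.31, adjusted p = 0.132), knockout replicate 2 (0.38, adjusted p = 0.109) or knockout replicate 3 (0.29, adjusted p = 0.155). Under quantile normalization (limma adjusted p = 0.0594 and 0.0642) or 75th percentile centring (limma adjusted p = 0.0792 and 0.0658) neither rise was called. Hmox1 is also expressed outside macrophages.

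Embryos of a genotype tended to keep their rank from gene to gene in the set. Wildtype replicate 3 had the highest of the wildtype values in 22 of the 35 genes, 62.9%, against 31.1% of all genes, and wildtype replicate 1 the lowest in 20. Among the 13 fallen genes, wildtype replicate 3 was highest in 11 and wildtype replicate 1 lowest in 10. Knockout replicate 1 was the lowest knockout array in 21 of the 35, 60.0%, against 38.1% of all genes, and in 10 of the 13 fallen genes. The set averaged 0.093 above its wildtype mean in wildtype replicate 3 and 0.088 below it in wildtype replicate 1. The high rank of wildtype replicate 3 was not particular to these genes. Its summed marker intensity was also the highest of the wildtype arrays for hepatoblasts (57290, against 47867 and 48405), endothelium (6679, against 4740 and 4735), mesenchyme and erythroblasts. For granulocyte, monocyte, megakaryocyte and lymphoid markers it was not the highest. Without wildtype replicate 3 the falls numbered 9, without knockout replicate 1 they numbered 9, without knockout replicate 3 they numbered 9, and with any other array left out 10 to 14. With 1 array left out 5.15% to 8.24% of all genes fell. Ctsb, Lgmn, Cd5l, Spic, Adgre1, Timd4, C1qb and Vcam1 were called lower with each of the 6 arrays left out in turn.

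**Figure D3:**
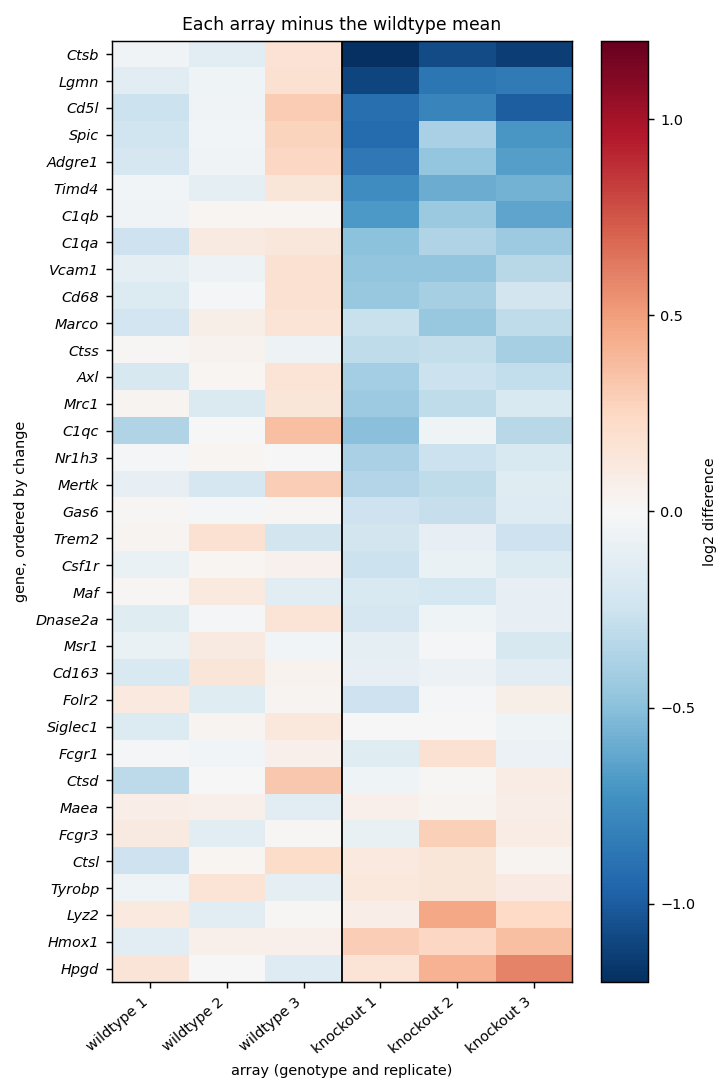
Difference of each array from the wildtype mean of the same gene (colour, log2 scale) for the 35 genes, ordered by their change, with the wildtype arrays left of the line and the knockout arrays right of it. The 13 fallen genes are blue on all 3 knockout arrays, and wildtype replicate 3 is red for most of them, being the highest wildtype array in 11 of the 13.

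Of 30 other macrophage and microglia genes 3 fell and 3 rose, with a median change of -0.02; the costimulatory gene Cd86 fell by 0.44, while the inhibitory receptor gene Cd33 and the lysosomal membrane gene Laptm5, both expressed in many leukocytes, rose by 0.51 and 0.51. Among 28 other lysosomal genes 3 fell and 3 rose (median 0.044). Acp5, a tartrate-resistant acid phosphatase of macrophages and osteoclasts, fell by 1.45 ± 0.13 (limma adjusted p = 2.0e-05), more than any of the 35 genes, and the peptidase gene Scpep1 fell by 0.66, while the glucosidase gene Gaa rose by 0.48. Of 18 transcription factors and growth factor genes of the lineage 1 fell and 6 rose: Runx1 rose by 0.60, Spi1, which encodes PU.1, by 0.55 and Tfe3 by 0.39. In the list of Fc receptor and ITAM signalling 0 of 18 fell and 10 rose (median 0.32); the kinase gene Btk rose by 1.12, the phosphatase gene Inpp5d by 0.91 and Plcg2 by 0.78. With knockout replicate 2 or 3 left out these rises numbered 5, as they did without moderation, and without wildtype replicate 2 or under 75th percentile centring 6.

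Engulfment machinery had 2 of 22 lower and 6 higher (median -0.051). Rac2, a blood cell GTPase, rose by 0.82 and Pros1, the protein S ligand of the Mertk family, by 0.68, while the lipid transporter gene Abca7 fell by 0.68. In heme and iron recycling 4 of 19 fell and 2 rose (median -0.15): the heme exporter gene Flvcr1 rose by 1.38 and the ferritin light chain gene Ftl1 by 1.09, while the reductase gene Steap3 fell by 0.85. Ftl1 was read from its 1 single-gene probe set, and 3 probe sets that it shares with other genes were left out.

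Of 17 measured genes for contact and signalling between erythroblasts and their surroundings, from either side of the island, 5 fell and 1 rose (median -0.066). Icam4, a red cell adhesion molecule that binds alpha V integrins, fell by 2.10 ± 0.098 (limma adjusted p = 1.9e-07), Epor, the erythropoietin receptor, fell by 0.71, and the ephrin gene Efnb1 rose by 0.59. Itga4, the alpha chain of the integrin that binds Vcam1, fell by 0.45 ± 0.077 (limma adjusted p = 0.00217), while its partner Itgb1 gave 0.10; both were named after their values were seen. Maea also belongs to the CTLH ubiquitin ligase, of whose 10 other genes 4 fell and 1 rose (median -0.089): Ranbp10 fell by 1.54, Wdr26 fell by 0.84 and Rmnd5b rose by 0.58.

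**Figure D4:**
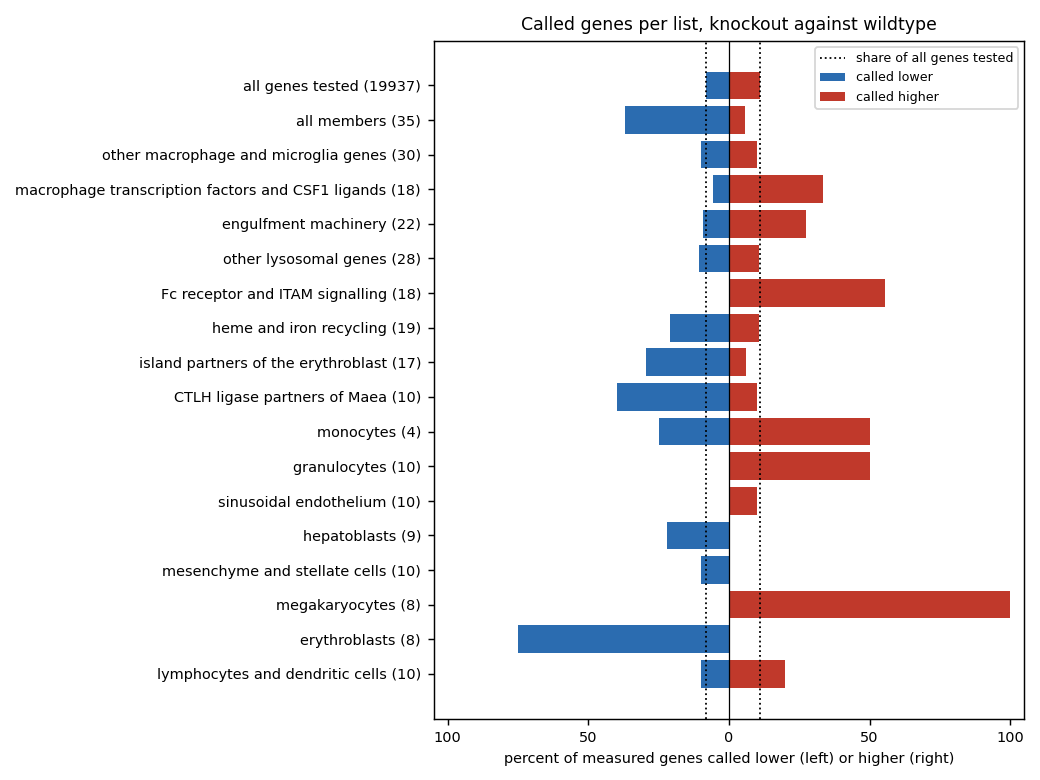
Percent of measured genes called lower (left, blue) and higher (right, red) in knockout, for all genes, the 35 macrophage and island genes and the related and cell type lists, with the number of genes in parentheses; dotted lines mark the shares of all genes tested, 8.26% lower and 10.8% higher. The 35 genes reach 37.1% on the left, below erythroblasts at 75% and the CTLH partners at 40%; higher shares are 100% for megakaryocytes, 55.6% for the Fc receptor list and 50% for granulocytes and monocytes.

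Markers of other cells of the liver moved with genotype as well. Their part in the changes above was not tested, and RMA lists no gene at 0. Erythroblast markers fell in 6 of 8 and rose in 0, with the summed intensity at 43957 to 48477 in wildtype and 25246 to 27388 in knockout; Epb42 fell by 1.5, Tfrc by 1.30 and Alas2 by 0.97. Megakaryocyte markers rose in 8 of 8, from sums of 15454 to 16232 in wildtype and 20002 to 26242 in knockout, with Itga2b at 1.05, Clec1b at 0.84 and Gp5 at 0.75. Granulocyte markers rose in 5 of 10 and fell in 0, and their sums ran from 5713 to 6397 in wildtype and 7315 to 9219 in knockout; Ms4a3 rose by 0.60, Mpo by 0.58 and Elane by 0.54. Monocyte markers, of which 4 were measured, had sums of 536 to 577 in wildtype and 684 to 728 in knockout: F13a1 rose by 0.53, Ccr2 rose by 0.37 and S100a4 fell by 0.38. Granulocytes and monocytes share Lyz2, Tyrobp and the Fc receptor genes with macrophages. Endothelial markers, whose cells share Vcam1 and Mrc1, rose in 1 of 10 (Pecam1, 0.40) and fell in 0. Their changes ran from -0.48, which was not called, to 0.40. Their sums of 4735 to 6679 in wildtype and 5067 to 6018 in knockout overlapped. Hepatoblast markers fell in 2 of 9 (Apoa1, -0.35, and Fgb, -0.32; sums of 47867 to 57290 in wildtype and 46100 to 49863 in knockout) and mesenchymal markers in 1 of 10 (Lum, -0.74; sums of 5202 to 7559 in wildtype and 4928 to 5833 in knockout). Lymphoid and dendritic markers rose in 2 of 10 (Il7r, 0.71, and Flt3, 0.42) and fell in 1 (Cd3d, -0.30; sums of 698 to 714 in wildtype and 755 to 772 in knockout). Over the 35 genes the sums were 22431 to 26435 in wildtype and 18508 to 20272 in knockout. Sums of linear intensity weigh the brightest genes most. Ctsb, the gene with the largest fall, was the brightest of the 35 in wildtype (mean 12.21), so these sums do not show a fall shared by the set.

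The number of genes that passed moved with the settings. The falls numbered 11 to 16 over quantile normalization and centring on the 75th percentile, the median or the housekeeping genes, and 6 without moderation of the variance (Ctsb, Lgmn, Timd4, C1qb, Ctss and Gas6). Of all genes, 6.62% to 12.3% fell over those scalings and 4.79% without moderation. At an adjusted p under 0.01 there were 7: Ctsb, Lgmn, Cd5l, Timd4, C1qb, Adgre1 and Spic. At that threshold 4.19% of all genes fell. Without moderation Adgre1 (limma adjusted p = 0.103), Cd5l (0.0577), Spic (0.147) and Vcam1 (0.0899) were not called, and with housekeeping centring Cd68 (0.0597), Axl (0.076) and Hmox1 (0.0783) were not.

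**Figure D5:**
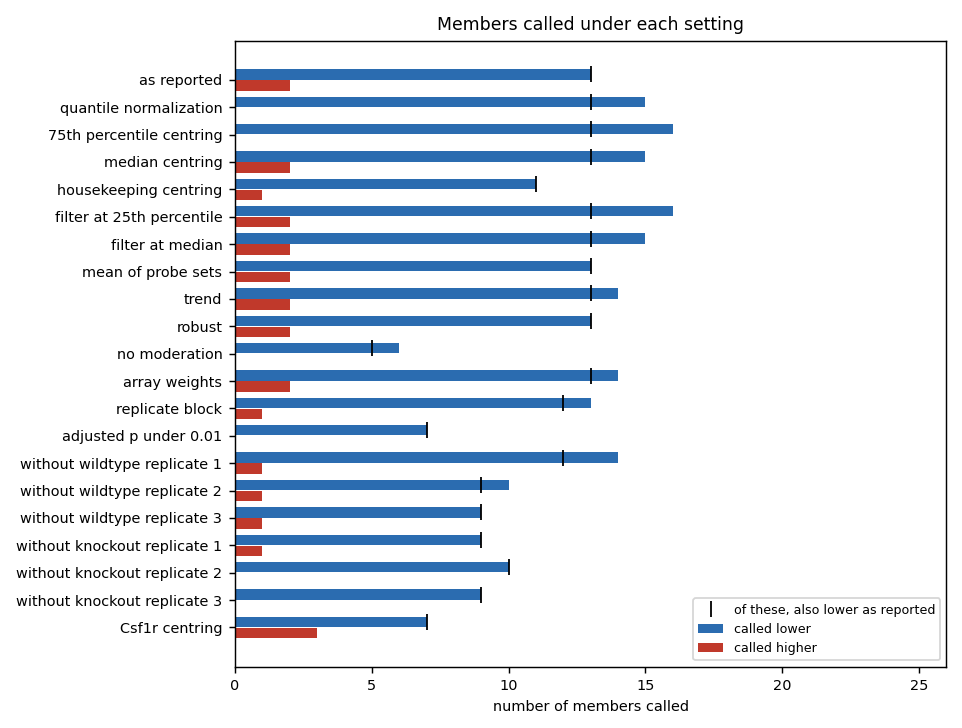
Number of the 35 genes called lower (blue) and higher (red) under each setting, with black ticks for how many of the lower calls are among the 13 reported falls. Lower calls range from 6 without moderation to 16 with 75th percentile centring or a filter at the 25th percentile; higher calls range from 0 to 3. Of all genes tested in these settings, 4.79% were lower without moderation, 12.3% with 75th percentile centring and 11.1% with the filter at the 25th percentile.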

How the data were processed

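RNA of 6 whole fetal livers, 3 per genotype, was measured on 6 arrays, and each array was grouped by its title. The deposited values are probe set intensities. The authors made them by RMA, and the submitters' processing notes name Affymetrix Power Tools 1.8.6. No genome build is given in the sources used here. The RMA method equalises array distributions, so a change in total RNA cannot be seen. Values were read as a linear scale (array medians of 104 to 110) and log2 was taken.

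Probe sets were named from the platform annotation; 21640 of 34760 had 1 gene, 1321 several and 11799 none named here. A gene with several single-gene probe sets was read from the brightest by its mean over all 6 arrays. Genotypes were compared 2-sided with limma 3.58.1 (lmFit, then eBayes) under R 4.3.3, genotype being the model's only factor, and p-values were adjusted by Benjamini-Hochberg over 19937 genes. The fit was tested on simulated data. An exact permutation of 3 against 3 arrays cannot go below p = 0.1 and was not used. The labels number the embryos but not their litters, so the p-values rest on the spread among these samples, which may be partly technical. The number of arrays limits precision.

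The 35 genes and the related lists were chosen with earlier results of these data known. Array values are given for the called genes and for Maea, Dnase2a, Csf1r, Vcam1, Hmox1 and Cd68; in other lists the up to 3 called genes with the largest change are named. Alternatives were other scalings, filters on dim genes, the mean of probe sets, a trended, robust or unmoderated variance, weights per array, the replicate number as a block, a stricter threshold and leaving out each array; centring on Csf1r was added after the data were seen. No set test was run.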

Additional observations from a re-analysis of the deposited data

How the results depend on the processing

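Among the 35 genes, falls numbered 6 without moderation and 7 at an adjusted p under 0.01 or with Csf1r centring, and 9 to 14 with 1 array left out. Of all genes, 4.79% fell without moderation, 4.19% at an adjusted p under 0.01, 3.14% with Csf1r centring and 5.15% to 8.24% with 1 array left out. Rises over all genes were 9.99% with quantile normalization, 7.89% with 75th percentile centring, 5.66% without moderation and 5.82% at an adjusted p under 0.01. With 1 array left out they were 6.88% to 10.6%. Rises numbered 0 with quantile normalization, 75th percentile centring, no moderation or an adjusted p under 0.01, 1 with housekeeping centring or the replicate block, and 0 to 1 with 1 array left out; the other settings, Csf1r centring included, gave 2 to 3. All genes called numbered 2083 without moderation, 1995 at an adjusted p under 0.01 and 2409 (without knockout replicate 2; 2414 without knockout replicate 3) to 3749 with 1 array left out, against 3809. More were called with 75th percentile centring (4035), a trended variance (4056), array weights (4798) and Csf1r centring (4853). Of the 160 related genes, 54 were called, against 30 without moderation and 34 at an adjusted p under 0.01, and 42 to 56 with 1 array left out. With array weights 60 of them were called and with Csf1r centring 62. Calls that fell were 43.2% of all calls, but 61.0% with 75th percentile centring and 12.9% with Csf1r centring.

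Signs turned in genes near 0, none of them called: with quantile normalization Fcgr1 (0.022), Folr2 (0.026) and Siglec1 (0.061); with 75th percentile centring Maea (-0.0043) and Ctsd (-0.048); with housekeeping centring Ctsd (-6.2e-05); with array weights Fcgr1 (0.0042) and Folr2 (0.0088); with Csf1r centring Fcgr1 (0.16), Cd163 (0.067), Msr1 (0.060), Folr2 (0.10), Maf (0.0036), Siglec1 (0.15) and Dnase2a (0.052). With 1 array left out the sign turned in Ctsl (-0.023 to 0.21), Ctsd (-0.14 to 0.18), Fcgr1 (-0.11 to 0.056), Siglec1 (-0.10 to 0.042), Maea (-0.0091 to 0.099), Folr2 (-0.14 to 0.023) and Fcgr3 (-0.0026 to 0.19).

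The labels do not say whether equal replicate numbers pair the embryos. Deviations of same-numbered arrays from their genotype mean correlated at -0.156, -0.224 and 0.183 over genes. Not every array correlated best with its own number, though the arrays of replicate 3 did. With 3 arrays behind each mean, these correlations cannot decide whether the embryos are paired. With the replicate block 13 of the 35 genes were lower (12 of the 13 reported, without Nr1h3, and Mrc1) and 1 higher (Hmox1), and 3498 genes were called in all. The cause of these differences was not tested. Signal limits the dim genes Cd163, Marco, Folr2 and Siglec1.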
